A study of Homo sapiens with 12 samples.

Results

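Distal H3K27ac loci held by every CFPAC1 library and by no MiaPaCa2 library numbered 9406 of 188651 merged loci. They were chosen from the peak calls themselves. The peaks of 12 lists on chromosomes 1 to 22 and X were merged wherever they overlapped by at least 1 bp. A merged locus was kept when it held a peak in all 8 CFPAC1 libraries, held none in the 4 MiaPaCa2 libraries, and lay more than 5 kb from both ends of every protein-coding gene of the RefSeq annotation (GRCh38). The absence of MiaPaCa2 peaks at these loci is therefore part of their definition and was not tested.

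The study examined chromatin of the pancreatic ductal adenocarcinoma cell lines CFPAC1 and MiaPaCa2 by immunoprecipitation with an antibody against acetylated lysine 27 of histone H3. Each of 6 groups had 2 libraries. Bulk CFPAC1 cells had received IFNbeta at 1000 U/ml for 2 hours, or were untreated. IRF1KO clones were CFPAC1 cells infected with the lentiCRIPSv2 plasmid expressing wild-type Cas9 with a guide against IRF1, and were isolated by dilution. WT clones had been isolated in the same way after infection with the lentiCRIPSv2 plasmid, with no guide named. Both kinds of clone thus carried a lentiviral insertion that the bulk cells lacked, and each clone library is a single clone. Bulk MiaPaCa2 cells had been treated in the same way, or left untreated. Separate cultures are not named for the paired libraries of bulk cells, so the spread between these libraries may be technical. In the reported fits within CFPAC1, the spread of a locus was pooled over the bulk pairs and the clone pairs together. Each p-value of these fits therefore rests on both kinds of pair. Those for IRF1KO against WT clones do not measure the spread between clones alone, and those for IFNbeta include it.

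Acetylation of histone H3 at lysine 27 is laid down by the acetyltransferases p300 and CBP at active promoters and enhancers. Enhancers bind transcription factors, often lie far from the genes they act on, and are used in a much more cell-type-specific way than promoters. CFPAC1 grows as an epithelial line with ductal features, whereas MiaPaCa2 is poorly differentiated and lacks E-cadherin. IRF1 is a transcription factor induced by interferons, and interferon beta acts through the receptor chains IFNAR1 and IFNAR2 and transcription factors that include IRF9.

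Some loci far from the outer ends of protein-coding genes still hold a transcription start, either of a long non-coding RNA or inside a protein-coding gene. Of 34961 RefSeq promoters, 494 lay inside 424 of the 9406 loci (4.51%). In 150 of these the whole 300 bases, 250 before to 50 after the start, lay under a single peak in all 8 CFPAC1 libraries. They comprised 85 promoters of 80 long non-coding RNAs and 65 internal starts of 56 protein-coding genes. The 250 bases before the start (RefSeq, GRCh38.p14) are shown for starts in 3 of the 10 broadest loci, for an AP-1-rich start in the epithelial gene LAMA3, and for the non-coding RNA start in the broadest locus of all. Capitals mark matches to the AP-1 motif TGANTCA and to the interferon response element (GAAA, any 2 bases, GAAA), searched on both strands.
TRHDE, chr12:72272120-72272369, plus strand: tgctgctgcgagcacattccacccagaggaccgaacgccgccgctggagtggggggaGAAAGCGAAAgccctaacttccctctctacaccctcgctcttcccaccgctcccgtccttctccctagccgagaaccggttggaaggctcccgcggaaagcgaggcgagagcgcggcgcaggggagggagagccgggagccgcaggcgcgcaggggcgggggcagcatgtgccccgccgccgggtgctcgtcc
MECOM, chr3:169146540-169146789, minus strand: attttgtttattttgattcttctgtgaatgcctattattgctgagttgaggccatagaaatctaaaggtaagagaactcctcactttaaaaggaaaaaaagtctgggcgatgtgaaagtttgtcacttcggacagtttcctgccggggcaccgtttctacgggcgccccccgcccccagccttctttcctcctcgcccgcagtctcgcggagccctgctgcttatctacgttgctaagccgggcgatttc
LINC00973, chr3:98966834-98967083, plus strand: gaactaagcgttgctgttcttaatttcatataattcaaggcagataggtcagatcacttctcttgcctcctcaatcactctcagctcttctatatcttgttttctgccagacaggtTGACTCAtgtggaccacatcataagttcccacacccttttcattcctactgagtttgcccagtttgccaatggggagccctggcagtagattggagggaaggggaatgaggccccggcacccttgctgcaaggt
LAMA3, chr18:23872770-23873019, plus strand: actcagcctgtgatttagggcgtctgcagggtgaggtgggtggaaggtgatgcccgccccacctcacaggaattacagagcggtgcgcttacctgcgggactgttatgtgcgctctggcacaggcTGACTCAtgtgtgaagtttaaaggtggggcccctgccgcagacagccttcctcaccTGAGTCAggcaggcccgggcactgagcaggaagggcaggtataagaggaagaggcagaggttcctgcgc
MIR31HG, chr9:21559799-21560048, minus strand: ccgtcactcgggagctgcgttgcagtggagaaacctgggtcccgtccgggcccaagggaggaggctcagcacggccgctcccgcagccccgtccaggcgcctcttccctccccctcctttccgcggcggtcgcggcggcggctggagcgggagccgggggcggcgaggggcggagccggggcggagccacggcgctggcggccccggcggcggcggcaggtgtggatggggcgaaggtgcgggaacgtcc
TRHDE encodes an enzyme that degrades thyrotropin-releasing hormone, MECOM a zinc finger transcription factor and LAMA3 the alpha chain of laminin-332 of epithelial basement membranes. LINC00973 is a long non-coding RNA, and MIR31HG the host transcript of the microRNA miR-31. The LAMA3 start had 2 AP-1 matches, LINC00973 had 1, and TRHDE had 1 match to the interferon element. The MIR31HG start was under one unbroken peak in only 1 of 8 libraries. Bases of its 300 that lay outside peaks numbered 121 and 97 in IFNbeta-treated cells, 175 and 156 in untreated cells, 55 and 136 in IRF1KO clones, and 98 and 0 in WT clones.

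AP-1 matches were present in 25.9% of the 85 non-coding promoters (22), against 17.8% of the 169 that lay under 1 peak in all 12 libraries at distal loci (30) and 10.3% of all 12829 non-coding promoters. For internal starts of protein-coding genes the shares were 16.9% (11 of 65), 9.47% (16 of 169) and 6.15% of all 22132 promoters. None of the other 10 motifs searched followed this order in both kinds of promoter. The interferon element was found in 4.71% of the CFPAC1-only non-coding promoters (4), 2.96% of those in all 12 libraries (5) and 4.27% of all non-coding promoters, and in 6.15% (4), 1.78% (3) and 3.17% for protein-coding genes, from very few matches. Base composition moved with these sets. The median number of CpG dinucleotides was 4 in both kinds of CFPAC1-only promoter, against 12 and 19 in the 2 kinds held by all 12 libraries, and 5 and 21 over all promoters. The part of base composition in the motif shares was not tested, and a match is not evidence of binding.

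MicroRNA hairpins lay inside 14 of the loci, of 1558 hairpins annotated. A single peak spanned 7 of them in all 8 CFPAC1 libraries (MIR7845, MIR218-1, MIR9-2, MIR583, MIR6124, MIR3161 and MIR2116). Those of miR-218, miR-6124, miR-583 and miR-9 are printed because their hairpins lay under a peak in every library, with the seed (bases 2 to 8) in capitals.
hsa-miR-218-5p (MIR218-1): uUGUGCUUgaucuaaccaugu
hsa-miR-6124 (MIR6124): gGGAAAAGgaagggggagga
hsa-miR-583 (MIR583): cAAAGAGGaaggucccauuac
hsa-miR-9-5p (MIR9-2): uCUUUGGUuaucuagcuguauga
The 21 mature sequences of the 14 hairpins had 21 different seeds. MIR6124, inside MICAL2, lay in a broad locus with a mean covered length of 5919 bp, and MIR218-1, inside the axon guidance gene SLIT2, in one of 5538 bp. MIR9-2 lay in a narrow locus of 666 bp near MEF2C. MIR2116, inside the myosin gene MYO1E, had a MiaPaCa2 peak 793 bp away, while the nearest for MIR218-1 lay 164550 bp away. The mature miR-9-5p is shared by 3 annotated hairpins and miR-218-5p by 2, of which only MIR9-2 and MIR218-1 lay in these loci. Acetylation over a hairpin gives no level of its microRNA.

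The CFPAC1 libraries held 80618 to 109861 peaks and the MiaPaCa2 libraries 59896 to 85442. Peaks covered 75.6 to 94.8 Mb in CFPAC1 and 63.6 to 78.2 Mb in MiaPaCa2. Read depths are not part of the peak lists, so the depth behind a missing peak is unknown. Within 5 kb of their gene ends, all 10 epithelial markers had a peak in all 8 CFPAC1 libraries, and 7 of 10 in all 4 MiaPaCa2 libraries. CDH1 and EPCAM, which encode adhesion molecules of epithelia, had one in none of the MiaPaCa2 libraries. Of 6 mesenchymal markers, 4 had a peak in all 8 CFPAC1 libraries and 3 in all 4 MiaPaCa2 libraries. Markers of other cell types gave no uniform picture in CFPAC1. A peak was present in all 8 libraries at 1 of 5 acinar markers (CELA3A), 1 of 4 endocrine (SYP), 2 of 4 immune (CD3E and CD68), 1 of 3 fibroblast (COL1A1) and 2 of 3 endothelial markers (PECAM1 and CDH5). The acinar PRSS1, the leukocyte gene PTPRC, the fibroblast gene DCN and the endothelial VWF had none in any CFPAC1 library. Peaks up to 5 kb from a gene end can belong to a neighbouring gene. Over IRF1 and 5 kb on either side, peaks covered 8271 and 14027 bp in IRF1KO clones, against 5485 and 6341 bp in WT clones. In bulk CFPAC1 cells they covered 14461 and 12341 bp after IFNbeta and 9716 and 7338 bp untreated, so both WT clones were below every bulk library. Acetylation over the gene does not show whether the guide disrupted it.

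Most distal loci held throughout CFPAC1 had a peak in none or in all of the MiaPaCa2 libraries. Among distal loci with a peak in all 8 CFPAC1 libraries, 9406 had a peak in 0 of the 4 MiaPaCa2 libraries and 4870 in all 4. Intermediate numbers were smaller, with 850 loci in 1 library, 698 in 2 and 698 in 3.

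**Figure D1:**
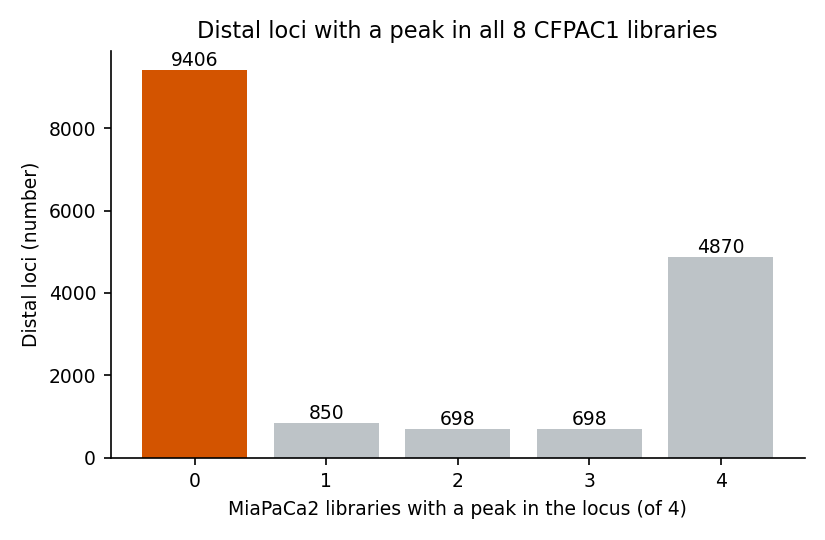
Bars give the number of distal loci with a peak in all 8 CFPAC1 libraries (vertical axis) by how many of the 4 MiaPaCa2 libraries also held a peak (horizontal axis). The bar at 0 (9406 loci) is the set described here, and the 3 intermediate bars hold 850, 698 and 698 loci.

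Loci held by 1 line were more often distal than loci held by both. Of 11580 loci held by all 8 CFPAC1 libraries and no MiaPaCa2 library, 81.2% were distal. In MiaPaCa2-only loci the share was 78.4% of 5506, whereas it was 29.1% of the 16748 loci held by all 12 libraries and 73.2% of all merged loci. The 9406 loci had a median distance of 45210 bp to the nearest protein-coding gene end, against 55533 bp for the 4318 MiaPaCa2-only distal loci and 26128 bp for the 4870 distal loci of all 12 libraries. Inside a protein-coding gene lay 4857 of them (51.6%), and 4549 lay between genes. More than 100 kb from any gene end lay 2551 (27.1%), and 304 lay more than 500 kb away. Just inside the 5 kb limit were loci near ELFN2 (5008 bp) and LOC107984449 (5017 bp), and just outside it loci near SEMA7A (4988 bp), SULT1C3 (4986 bp) and PSMG2 (4981 bp). Their mean covered lengths were 885 and 1117 bp inside the limit, and 7550, 1687 and 1271 bp outside.

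The loci were of moderate size. Their mean covered length over the 8 CFPAC1 libraries had a median of 1406 bp (quartiles 902 and 2260 bp, range 293 to 28620 bp). Distal loci of all 12 libraries had a median of 1924 bp in the same 8 libraries, and MiaPaCa2-only distal loci 796 bp in the 4 MiaPaCa2 libraries. The deposited fold enrichment of a peak, which is the authors' own value, was used to rank loci within each list. By that rank the CFPAC1-only loci had a median percentile of 66.0, against 80.1 for distal loci of all 12 libraries. Each of the 8 lists gave this order, with library medians of 63.3 to 76.4 for the CFPAC1-only loci and 78.2 to 84.8 for the loci of all 12 libraries. The coefficient of variation of covered length across the 8 libraries had a median of 29.3%. In 3259 loci (34.6%) the strongest summit stayed within 300 bp of its median position in all 8 libraries.

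MiaPaCa2 peaks were mostly far away. The nearest one lay at a median of 43725 bp, 7358 loci (78.2%) had none within 10 kb and 3087 (32.8%) had none within 100 kb. A MiaPaCa2 peak lay within 1 kb of 311 loci. The loci made up 6.81% of all distal loci, and between 2.35% (chromosome 19) and 8.46% (chromosome 4) of those of a single chromosome. MiaPaCa2-only loci made up 3.13% overall and 4.84% on chromosome 19.

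Ranked by fold enrichment, the strongest locus lay 31146 bp from PCED1B (chr12:47267806-47274228), with a mean percentile of 99.7. Its peaks covered 5336 and 5323 bp in IFNbeta-treated cells, 5443 and 6311 bp in untreated cells, 5119 and 5062 bp in IRF1KO clones and 5625 and 5772 bp in WT clones. Both IRF1KO clones were the lowest libraries and IFNbeta-treated cells the next lowest, while WT clones and untreated cells overlapped. The next were near CFAP46, a ciliary gene, FUT8, which encodes the enzyme adding core fucose to N-glycans, and ANKRD1, a known target of the YAP coactivator. Then came LYPLAL1, the arginine deiminase PADI1, the phospholipase PLAAT4, the zinc transporter SLC39A11, TRHDE and LRP11. Their mean percentiles were 99.2 to 99.6, and 133 loci ranked in the top 10% of fold in all 8 lists. Strong loci were not all broad. The CFAP46 locus covered 1647 ± 40.1 bp and the PLAAT4 locus 838 ± 25.3 bp (SD over the 8 libraries, n = 8), whereas the LYPLAL1 locus covered 12725 ± 3650 bp.

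The broadest locus lay between IFNE, an epithelial type I interferon gene, and MTAP, a methionine salvage gene, at chr9:21542138-21573806, around the MIR31HG start printed above. It covered 28101 and 29143 bp in IFNbeta-treated cells, 30644 and 30819 bp in untreated cells, 22133 and 28631 bp in IRF1KO clones and 30245 and 29240 bp in WT clones. IRF1KO clone 1 was the lowest library. A second locus, of 18459 ± 795 bp, followed at chr9:21574511-21593954, and another near MTAP covered 15491 ± 840 bp. The TRHDE locus (chr12:72264910-72287262) covered 18720 ± 2114 bp and the MECOM locus (chr3:169130905-169149922) 17541 ± 1253 bp, both inside the gene and around the internal starts printed above. The LINC00973 start lay in the locus near DCBLD2, of 15905 ± 1130 bp. Loci inside ARHGAP26, LMO7 and MET, the receptor of hepatocyte growth factor, and one near ASPH completed the 10 broadest, at 13839 to 16504 bp. LMO7, a LIM domain protein of cell junctions, covered 11891 and 12550 bp in IRF1KO clones, against 15378 and 14754 bp in WT clones, with 17914 and 17535 bp in IFNbeta-treated and 18109 and 17899 bp in untreated bulk cells. In all, 34 loci had a mean covered length above 10 kb and 372 above 5 kb.

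**Figure D2:**
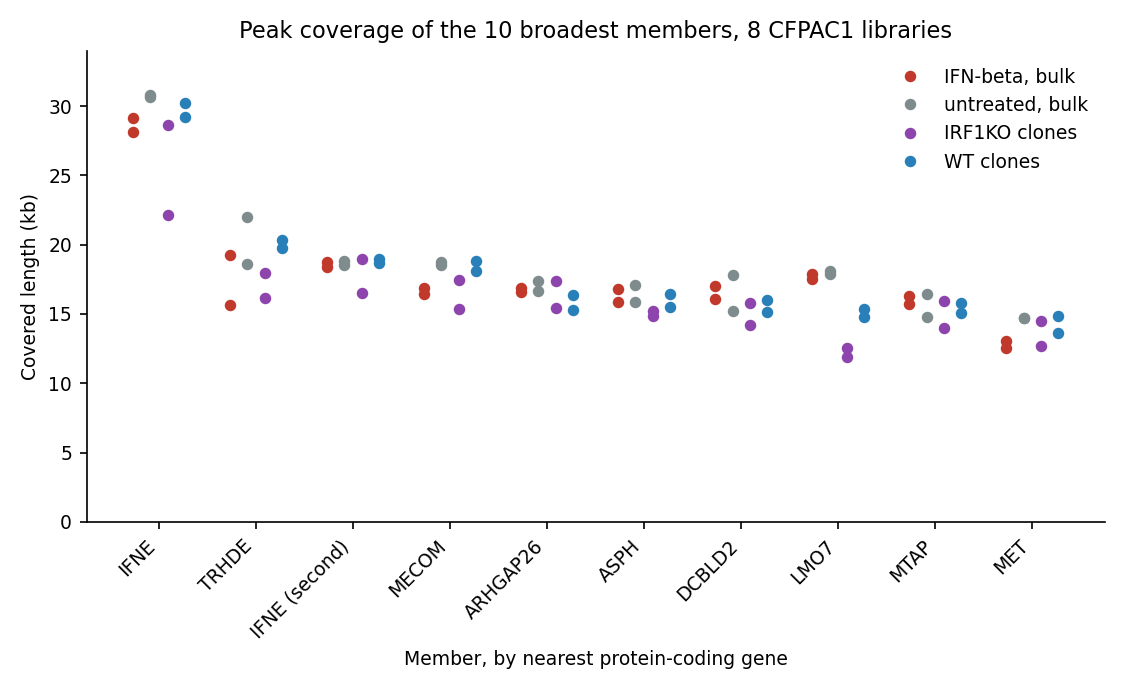
Points give the covered length (kb, vertical axis) of the 10 broadest loci in each of the 8 CFPAC1 libraries, by nearest protein-coding gene and coloured by group. The first IFNE locus lies between 22133 and 30819 bp, and the LMO7 locus is lowest in the 2 IRF1KO clones.

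These 3 chromosome 9 loci belonged to a stretch of 7481 kb (chr9:19409826-26890883) with no peak in any MiaPaCa2 library. It held 33 of the 9406 loci with a summed mean covered length of 136 kb, and 29 protein-coding genes lay wholly inside it, the tumour suppressor CDKN2A among them. MiaPaCa2 is known for a homozygous loss of CDKN2A, so that absence of DNA and absence of acetylation cannot be told apart at these loci. Some shorter peak-free stretches of MiaPaCa2 also held many loci. One of 827 kb beside TGFB2 and LYPLAL1 held 40, with no protein-coding gene wholly inside, and one of 1076 kb beside KLF5 and KLF12 held 29. A stretch beside ALCAM, NFKBIZ and ZPLD1 held 36 loci over 4017 kb, and one beside HS3ST1 and CLNK held 25 over 3317 kb.

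**Figure D3:**
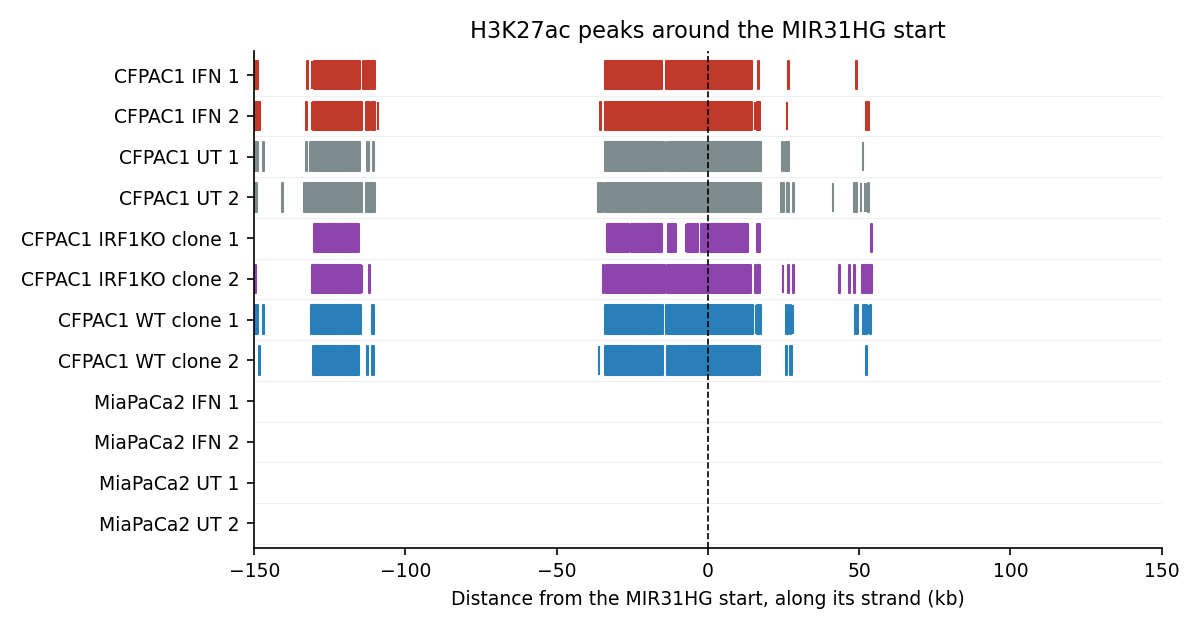
Bars mark H3K27ac peaks of the 12 libraries (rows) by distance in kb from the MIR31HG start, along the strand of the gene. All 8 CFPAC1 libraries hold broad peaks on both sides of the start, and the 4 MiaPaCa2 rows are empty over the whole 300 kb drawn.

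Some CFPAC1-only loci came in runs, though no other set of loci was chained for comparison. When neighbours at most 50 kb apart were chained, the 9406 loci fell into 4874 stretches, of which 2904 held a single locus. The 330 stretches with 5 or more loci held 2356 of them. The largest ran for 383 kb around TGFB2, which encodes a transforming growth factor beta ligand, and held 33 loci with 93.4 kb of summed mean coverage (chr1:218330091-218712650). Of its 154 merged loci, 1 held a MiaPaCa2 peak. The next held 26 loci around PTPN14, a phosphatase that restrains YAP, and 2 of its 83 merged loci held a MiaPaCa2 peak. Runs of 19 loci lay beside HS3ST1, a heparan sulfate sulfotransferase, and F3, which encodes tissue factor, and neither had a MiaPaCa2 peak. A run of 18 lay around NRP1, a receptor for semaphorins and VEGF, where 7 of 106 merged loci held one. By nearest gene, the loci were shared among 3792 genes, among them TGFB2 with 33, PTPN14 with 24, and the polarity gene PARD3 and protein kinase C alpha (PRKCA) with 21 each. PTPN14 loci made up 27.6% of its 87 distal loci. Nearest gene names a position here and not a target.

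Gene lists were read through the nearest protein-coding gene end. Over all genes, 6.81% of distal loci were CFPAC1-only and 3.13% MiaPaCa2-only. Mucins and secreted genes of the classical subtype had 23 CFPAC1-only loci at 8 of 29 genes (13.2% of the list's distal loci) and 0 MiaPaCa2-only loci. The genes with most were AGR3, of the protein disulfide isomerase family, with 8, ANXA10 with 4, and VSIG1 and MUC16 with 3 each. Epithelial adhesion and keratin genes had 49 loci at 16 of 31 genes (12.2%), against 5 MiaPaCa2-only loci (1.24%). The tight junction scaffold TJP1 had 8, and LAMA3 and the E-cadherin gene CDH1 7 each, all 7 CDH1 loci being inside the gene. Mesenchymal genes had 41 loci at 10 of 16 genes (11.5%) against 2. ZEB2, a repressor of E-cadherin, had 17, though 16 of them lay 417534 bp or more from the gene, and the N-cadherin gene CDH2 had 10.

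Transcription factors were read in 2 lists. Endodermal factors had 27 CFPAC1-only loci at 9 of 20 genes (7.78%), against 14 MiaPaCa2-only loci, of which 12 lay at NR5A2. SOX9, a ductal and progenitor factor, had 12 with 38.7 kb of summed mean coverage, none within 100 kb of the gene, and GATA6, which marks the classical subtype, had 5. Epithelial factors had 23 loci at 5 of 13 genes (5.18%), against 68 MiaPaCa2-only loci, of which 67 lay at TP63, the factor of squamous epithelia. The 23 lay at KLF5 (11), KLF4 (5), GRHL2 (4), GRHL3 (2) and ELF3 (1), and none of these 5 genes had a MiaPaCa2-only locus.

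Genes of NF-kB signalling and inflammation had 25 loci at 8 of 20 genes, of 209 distal loci, with NFKBIZ at 10, TNFAIP3 at 5 and the cytokine gene IL6 at 3. Interferon-stimulated genes had 7 loci at 2 of 41 genes (4.19%), 6 at CMPK2 and 1 at HERC6. The 6 CMPK2 loci lay 280335 to 485611 bp from the gene. Interferon signalling genes had 8 loci at 7 of 19 genes (4.52%), with 2 at the receptor gene IFNAR2. Both interferon shares were below the 6.81% of all genes. In fatty acid and sterol metabolism there were 39 loci at 9 of 27 genes (9.35%), led by PPARGC1A, a coactivator of oxidative metabolism, with 10, the adipogenic factor PPARG with 8, and the elongase ELOVL6 and the acyl-CoA ligase ACSL4 with 5 each. Glycolysis had 19 loci at 7 of 16 genes (7.92%), of which 9 lay at PFKFB3, which makes the activator of phosphofructokinase. Counting every gene with an end within 100 kb in place of the nearest one, 17 of the 41 interferon-stimulated genes and 21 of the 29 mucin genes had a CFPAC1-only locus, against 7431 of 19974 protein-coding genes.

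**Figure D4:**
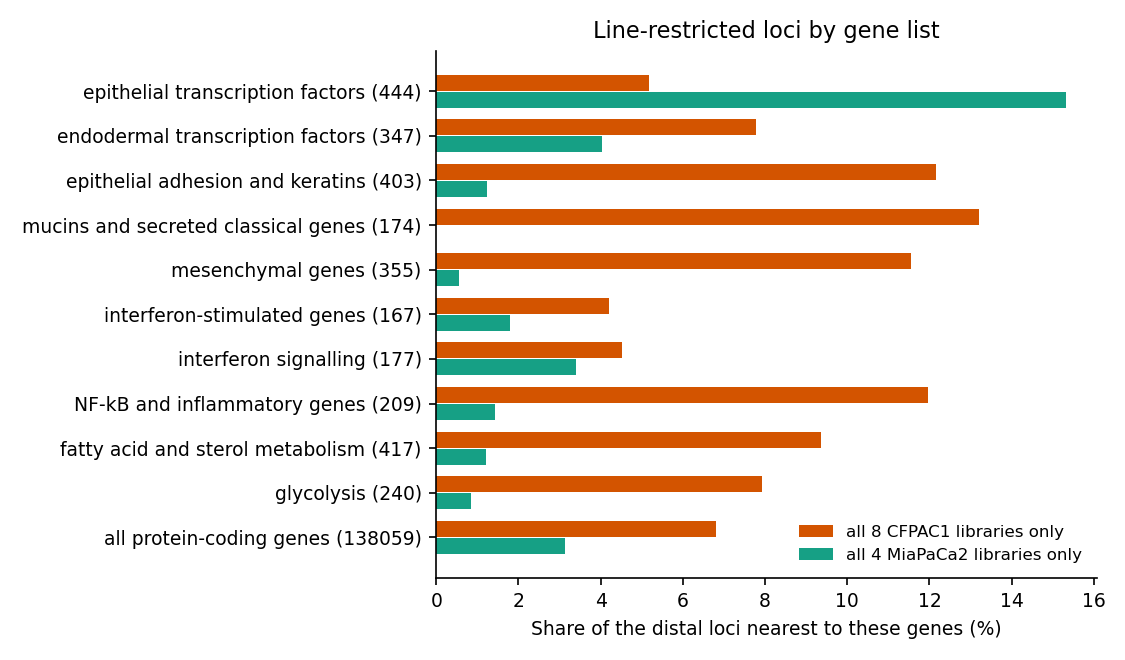
Bars give the share (%) of the distal loci nearest to the genes of each list that were held by all 8 CFPAC1 libraries only or by all 4 MiaPaCa2 libraries only, with the number of distal loci in brackets. The CFPAC1-only share is 13.2% for mucin genes and 5.18% for epithelial transcription factors, where the MiaPaCa2-only share is 15.3%.

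The rule asks for a peak in every CFPAC1 library, so it bounds the differences that these loci can show within CFPAC1. A locus without a peak in any of the compared libraries cannot be among them, whereas all loci tested include such loci. Covered length was compared on the log2(covered bp + 500) scale, centred on each library's mean, with limma over 84052 loci that held a peak in at least 2 of the 8 libraries. Because of the added 500 bp, fitted changes understate those of narrow loci. Summed over all 9406 loci, peaks took 21.4% and 22.1% of the covered bases in IFNbeta-treated cells, against 21.3% and 21.8% in untreated cells, and 19.7% and 18.2% in IRF1KO clones, against 20.9% and 21.9% in WT clones. The IRF1KO share was 2.44 percentage points lower, and the ranges did not overlap. A two-sided exact permutation test gave p = 0.333, the smallest that 2 against 2 libraries allow.

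Treatment with IFNbeta changed few of the loci. Of 9406, 36 rose and 42 fell (limma, Benjamini-Hochberg adjusted p under 0.05 over all loci), which is 0.829%, against 2.24% of all 84052 loci. By direction, 0.383% rose, against 2.01% of all loci, and 0.447% fell, against 0.228%. Loci with a peak in all 8 libraries are the closest like set. Of 31725 such loci, 135 were higher (0.426%) and 83 lower (0.262%), 0.687% in all. Without centring the calls were 24 higher and 148 lower, with all changes shifted by a median of -0.15, and with 50 bp added in place of 500 bp they were 54 higher and 17 lower. No call was left without any single library of the untreated, IFNbeta or WT clone groups, with the replicate block, in a fit of the 4 libraries alone, or when the fit was limited to loci with a peak in all 8 libraries.

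The largest rise was at a locus 89948 bp from ASB9 (chrX:15149169-15154039), a gene of the ubiquitin ligase adaptor family. It covered 4747 and 4583 bp in IFNbeta-treated cells, against 701 and 990 bp in untreated cells, a log2 change of 2.11 ± 0.22 (SE, limma adjusted p = 0.0214). The clones were low there too, at 413 and 246 bp in IRF1KO clones and 551 and 784 bp in WT clones. A locus 14659 bp from PRM1, a sperm protamine gene (chr16:11295989-11298682), covered 2694 and 2445 bp with IFNbeta, against 389 and 345 bp in untreated cells (1.98 ± 0.21, adjusted p = 0.0214). One near SULF2, which encodes an extracellular heparan sulfatase, covered 2912 and 1926 bp with IFNbeta, against 215 and 409 bp in untreated cells (adjusted p = 0.0235). The IRF1KO clones were not low at all 3 of these loci. They covered 1494 and 2253 bp at the SULF2 locus, against 348 and 577 bp in WT clones. At the PRM1 locus they covered 858 and 1098 bp, against 316 and 430 bp in WT clones. Rises near SLF1 (inside KIAA0825) and POT1, a telomere protection gene, were 1.93 and 1.72 on the log2 scale (adjusted p = 0.0382 and 0.0383).

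Among the loci that fell with IFNbeta, the one inside HMGA2, an architectural chromatin gene, covered 267 and 505 bp with IFNbeta, against 2817 and 2363 bp in untreated cells (-1.65 ± 0.20 SE, limma adjusted p = 0.0219). Loci inside VPS13D and near the adhesion scaffold NEDD9 and ZPLD1 fell by 1.86, 1.69 and 1.56 on the log2 scale. Of the lists, 2 of 41 mesenchymal loci fell, both at ZEB2, as did 1 of 25 NF-kB loci, near the cytokine gene IL18. One of the interferon signalling loci (1 of 8) fell too. No list locus rose. The 7 loci of interferon-stimulated genes had a median change of 0.43, with 6 above 0 and none called. The median was 0.01 over all loci and 0.04 over loci with a peak in all 8 libraries. All 6 above 0 were the CMPK2 loci of 1 region, 280335 to 485611 bp from that gene. The HERC6 locus was at -0.22. The largest of the 7 changes was at chr2:6411507-6417099, which covered 5438 and 5593 bp with IFNbeta, against 3067 and 3477 bp in untreated cells (0.84, limma adjusted p = 0.0575). A locus inside ELOVL6, chosen after its values were seen, covered 6095 and 6501 bp with IFNbeta, against 1676 and 3867 bp in untreated cells (adjusted p = 0.198).

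The IRF1KO clones had 3 loci higher and 7 lower than the WT clones (limma, adjusted p under 0.05), 0.106% of 9406, against 0.0761% of all loci tested. With quantile normalization 0 were higher and 5 lower, and with 50 bp added 0 and 6. The median change was -0.09 for the CFPAC1-only loci and -0.03 for all loci, and 5930 of 9406 were below 0. By direction, 0.0319% rose, against 0.0107% of all loci, and 0.0744% fell, against 0.0654%, while 0.0567% of the loci with a peak in all 8 libraries were called. Calls numbered 0 in a fit of the 4 clone libraries alone or when any library of the untreated, IFNbeta or WT clone groups was left out, 338 without IRF1KO clone 1 and 41 without IRF1KO clone 2.

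The locus with the lowest p lay inside ZEB1 (chr10:31352342-31355763), which encodes a repressor of epithelial genes. It covered 418 and 481 bp in IRF1KO clones, against 3056 and 3007 bp in WT clones, a log2 change of -1.93 ± 0.14 (limma adjusted p = 0.0155). Bulk cells were close to the WT clones, with 1939 and 2253 bp after IFNbeta and 2282 and 2845 bp untreated. A locus 115085 bp from KLF5 (chr13:73192623-73197095), which encodes a factor of gastrointestinal epithelia, covered 961 and 1084 bp in IRF1KO clones, against 3484 and 2895 bp in WT clones (-1.30 ± 0.11, adjusted p = 0.0207). In bulk cells it covered 4115 and 3672 bp after IFNbeta and 3744 and 4318 bp untreated, so that the 2 IRF1KO clones were the lowest of the 8 libraries. The locus near RAPH1, which encodes lamellipodin, covered 696 and 751 bp in IRF1KO clones, against 3148 and 2786 bp in WT clones (-1.53 ± 0.13, adjusted p = 0.0207). The one inside MAML2, a Notch coactivator gene, covered 1281 and 1010 bp in IRF1KO clones, against 4257 and 3964 bp in WT clones (-1.52 ± 0.14, adjusted p = 0.0207). The RGS7 locus, in a regulator of G protein signalling, covered 628 and 255 bp in IRF1KO clones, against 3822 and 2708 bp in WT clones (-2.04 ± 0.22, adjusted p = 0.0382). At all 5 loci the 4 bulk libraries were also above both IRF1KO clones. The remaining called falls, outside the rule for named loci, lay near XCL2 and in ARHGAP32.

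At the 3 rises the WT clones were low. The locus inside PDLIM5 (chr4:94633504-94636515) covered 2850 and 2668 bp in IRF1KO clones, against 312 and 453 bp in WT clones (1.86 ± 0.17, limma adjusted p = 0.0236), but 2064 and 2596 bp in IFNbeta-treated and 2490 and 2765 bp in untreated bulk cells. Both other rises lay near LOC124904962 on chromosome 20. The first covered 3315 and 2473 bp in IRF1KO clones, against 212 and 200 bp in WT clones, with a limma adjusted p of 0.0382. IFNbeta-treated cells were low there too, at 241 and 480 bp, against 2294 and 1974 bp in untreated cells. The second covered 3433 and 3294 bp in IRF1KO clones, against 576 and 276 bp in WT clones, with a limma adjusted p of 0.0477. Chromosome 20 as a whole took 3.26% and 3.52% of the covered bases in IRF1KO clones, against 2.62% and 1.85% in WT clones, with 2.82% to 3.14% in bulk cells. Its part in these calls was not tested.

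Of the 23 loci of epithelial transcription factors, 21 had a fitted change below 0 in IRF1KO clones, against 5930 of all 9406 CFPAC1-only loci. The median of the 23 was -0.42, although KLF5 gave the only call. Their summed coverage was 49.8 and 36.3 kb in IRF1KO clones, against 68.2 and 60.2 kb in WT clones, with 67.3 and 64.8 kb in IFNbeta-treated and 67.1 and 75.1 kb in untreated bulk cells. As a share of all covered bases this was 0.0633% and 0.0400% in IRF1KO clones, against 0.0795% and 0.0796% in WT clones, so the 2 clone groups did not overlap. By gene, 10 of 11 KLF5 loci, 5 of 5 KLF4 loci and 4 of 4 GRHL2 loci were below 0. Loci of 1 gene can be neighbours, so these counts are not of separate observations. IRF1KO clone 2 was the lowest library at all 4 GRHL2 loci, at 387 to 1167 bp. Chromosome 8, which holds GRHL2, took 4.05% and 2.56% of all covered bases in IRF1KO clones 1 and 2, against 3.70% and 4.13% in WT clones, and its part in the GRHL2 values was not tested. A KLF5 locus of 6862 bp on average (chr13:73321847-73330344) covered 4194 and 4267 bp in IRF1KO clones, against 7758 and 6262 bp in WT clones, and was not called (adjusted p = 0.0717). Another covered 4508 bp in IRF1KO clone 1 but 298 bp in IRF1KO clone 2, against 7085 and 5894 bp in WT clones (adjusted p = 0.349). The KLF5 loci lie in 1 peak-free stretch of MiaPaCa2, where 27 of 29 CFPAC1-only loci were below 0 with a median of -0.46 and 1 call. Chromosome 13 took 2.88% and 2.81% of the bases covered at CFPAC1-only loci in IRF1KO clones, against 3.10% and 3.03% in WT clones.

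The other epithelial lists had no calls in this comparison. Adhesion and keratin loci had a median of -0.22 (38 of 49 not above 0) and mucin loci one of -0.22 (19 of 23). Over all CFPAC1-only loci, 5930 of 9406 were below 0. All 7 CDH1 loci were below 0, and IRF1KO clone 2 was the lowest of the 4 clones at each. At the broadest of them clone 2 covered 1157 bp and clone 1 covered 3843 bp, against 4069 and 4157 bp in WT clones. Mesenchymal loci had a median of -0.16 with 1 fall, at ZEB1, and 16 of 17 ZEB2 loci were below 0. PPARGC1A had 9 of 10 loci above 0, with a median of 0.50 and none called. Chromosome 4, which holds PPARGC1A and PDLIM5, took 4.66% and 5.09% of all covered bases in IRF1KO clones, against 3.67% and 5.23% in WT clones, and its part in these values was not tested. Endodermal factor loci had a median of -0.09, that of all CFPAC1-only loci.

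**Figure D5:**
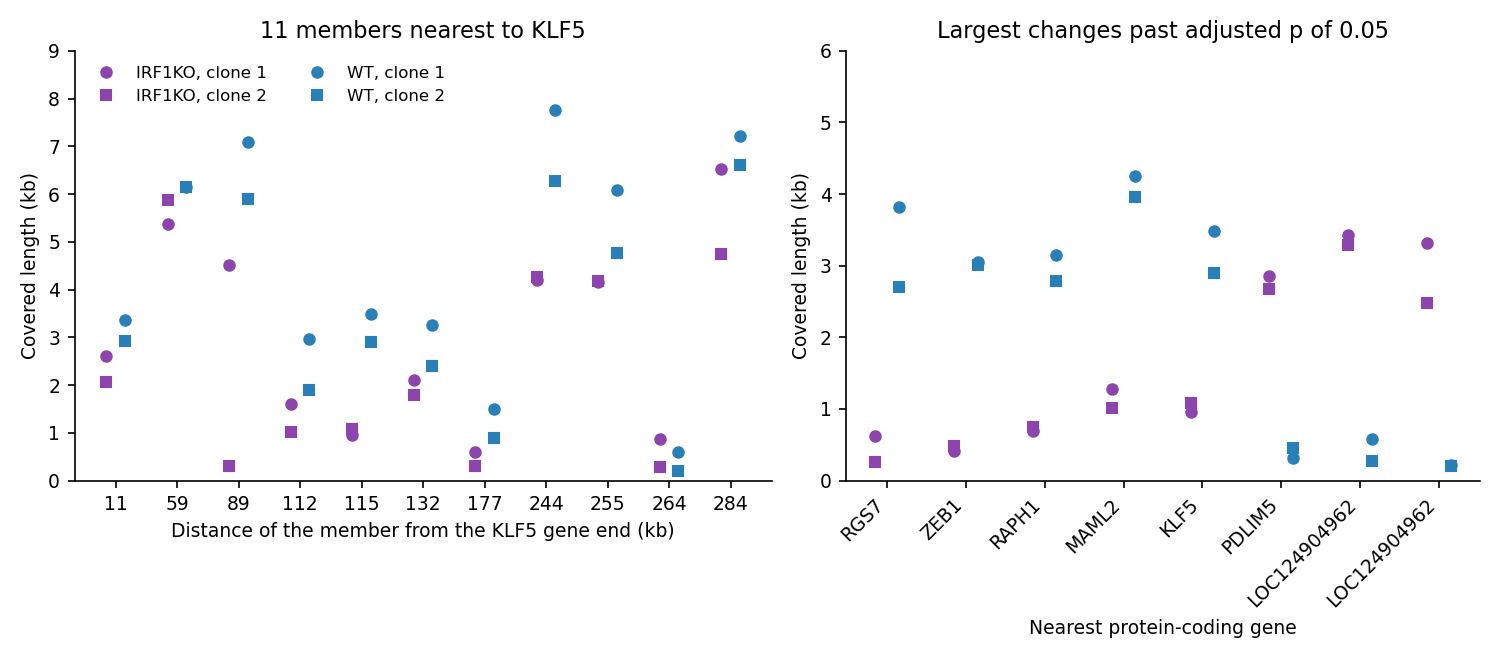
Covered length (kb, vertical axes) in the 2 IRF1KO and the 2 WT clones. The left panel shows the 11 loci nearest to KLF5 by distance from the gene. The fitted change was below 0 at 10 of these neighbouring loci, against 5930 of all 9406 CFPAC1-only loci. The right panel shows the 8 named loci past the threshold, with 5 lower and 3 higher in IRF1KO clones.

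Between WT clones and untreated bulk cells no locus was called (limma, adjusted p under 0.05), against 0.00238% of all loci tested, and 574 of 9406 (6.10%) had an unadjusted p under 0.05, against 8.25% of all loci. The lowest p was that of the PDLIM5 locus, at 312 and 453 bp in WT clones, against 2490 and 2765 bp in untreated cells (limma adjusted p = 0.241). It was followed by a locus near LYPLAL1 (chr1:218943953-218952001) with 3674 and 2985 bp in WT clones, against 6991 and 8049 bp in untreated cells, and one near the chemokine gene CCL28 with 1555 and 1172 bp in WT clones, against 3535 and 4405 bp in untreated cells (adjusted p = 0.332 for both). The comparisons share libraries, IFNbeta and WT clones the untreated cells, and both clone comparisons the WT clones, so their values stand side by side and are not independent.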

How the data were processed

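H3K27ac peak lists of 12 libraries were analysed. The submitters' processing notes name Trimmomatic 0.38, Bowtie2 2.2.6, SAMtools, MACS2 2.1.0.20150731 and the build GRCh38, with no roles or settings, and each library has its own peak list. The deposited lists give each peak's position, its fold enrichment over background and −log10 p and q as the authors' caller wrote them. Fold enrichment served only for ranks within a list, and −log10 q and p for stricter selections. Peaks on other chromosomes (0 to 55 a library) were left out.

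Covered bp per merged locus were tested with limma 3.58.1 (R 4.3.3) in 4 CFPAC1 groups of 2 libraries, with trended prior and Benjamini-Hochberg adjustment over 84052 loci. The members of the set and the gene lists were chosen with earlier results of these data known. Named by rule were the 10 loci of highest mean fold rank, the 10 broadest, the 5 largest stretches, the 5 genes with most loci, the 3 loci on each side of the distance limit, up to 5 called changes per direction and comparison (the 3 lowest p where none passed), and up to 3 genes per list. Other loci, genes, promoters and microRNAs named were chosen after their values were seen. Motifs were searched in RefSeq promoters, since no genome was used here: AP-1, TEAD (GGAATG), FOXA (TGTTTAC), the GATA factors (letters AGATAA), KLF (GGG and GTGG, 1 base apart), ETS (GGAAGT), GRHL (AAC and GTT, 2 bases apart), HNF1 (GTTAAT and ATT, 1 base apart), E-box (CAGGTG), the TATA box (TATAAA) and the interferon element. Both strands were searched, and no motif contains another. The limma step was tested on simulated data, with equal spread at all loci and libraries and changes added only to the IFNbeta group. That test does not cover a spread that differs between bulk and clone libraries. Some items that the naming rule selects are not reported here.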

Additional observations from a re-analysis of the deposited data

How the results depend on the processing

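The number of CFPAC1-only distal loci was 9406 as reported, 6159 with lists cut to equal length, 2705 when the peaks of a library had to cover 50% of the locus, and 9569 to 10555 with 1 of the 12 libraries left out. A minimum −log10 q of 5 gave 6873. Calls between IFNbeta-treated and untreated cells (78 as reported) numbered 0 with the replicate block, 307 with all 12 libraries in the fit, 0 with the 4 libraries of the comparison, 172 without centring, 44 without a filter on loci, 0 among loci with a peak in all 8 CFPAC1 libraries, 119 with equal peak numbers, and 0 to 55 with 1 library left out. Those between IRF1KO and WT clones (10 as reported) numbered 8 with the block, 324 with all 12 libraries, 0 with the 4 libraries, 4 without centring, 5 with quantile normalization, 6 with 50 bp added, 63 without a filter, 32 at the stricter q, 64 with equal peak numbers, and 0 to 338 with 1 library left out. Between WT clones and untreated cells, 40 loci were called with all 12 libraries and 0 under each other alternative. The cause of these differences was not tested, apart from the fewer libraries or loci that some fits use. None of the 18 named called loci changed sign under any of 18 alternatives each, but in 185 of these fits the adjusted p of a locus rose past 0.05. Replicate numbers are not stated to pair cultures, and replicate differences correlated at 0.29, -0.06 and 0.01 in the 3 comparisons, over 9406 loci. The planned motif search around summits was not run, because it needs a genome of the build. Peak lists hold no read counts, so a missing peak may be a weak one.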
